A study of Homo sapiens with 6 samples.

Results

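The 10 genes described here encode core components of the Hippo pathway: the kinases STK3, STK4 and LATS1, the scaffold SAV1, the coactivators YAP1 and WWTR1, and the DNA-binding factors TEAD1 to TEAD4. They were taken by gene name from a deposited table of 60545 genes, as components and not targets of the pathway. All 10 passed the filter on low counts, which left 15773 genes. RNA came from PC3, an established line of prostate cancer cells first grown from a metastasis in bone, with 3 libraries from cells given the peptide RSM3 and 3 from Control cells. The medium of both groups was RPMI-1640 with serum, penicillin and streptomycin, and the labels state no genetic change, dose, duration or vehicle. They do not say that replicates were separate cultures. The p-values therefore measure the spread among these libraries alone, and that spread may be technical.

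In the Hippo pathway the kinases STK4 and STK3, also called MST1 and MST2, act with the scaffold SAV1 to activate LATS1 and its relative LATS2. The LATS kinases phosphorylate YAP and TAZ, the proteins of YAP1 and WWTR1, which are then held in the cytoplasm or degraded. Unphosphorylated YAP and TAZ enter the nucleus, where they act through the DNA-binding TEAD proteins on genes such as CCN1, CCN2 and ANKRD1. Phosphorylation and location of these proteins were not measured here.

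The libraries held 14091359 to 18594251 counts, RSM3 replicate 1 having the lowest total. The keratin genes KRT8, KRT18 and KRT19 were at 168 to 811 CPM (counts-per-million of the library total). The other epithelial markers listed were lower, EPCAM at 8.52 to 11.5 CPM and CDH1 at 4.86 to 7.10 CPM. KLK3, which encodes prostate-specific antigen, was at 0 in 5 libraries. None of 6 leukocyte markers passed the filter. They summed to 0.538 to 2.20 CPM in Control and 0.312 to 0.426 CPM in RSM3, with CD3E and HBB among those at 0 throughout. The 5 fibroblast markers summed to 79.8 to 96.6 CPM in Control and 58.4 to 84.0 CPM in RSM3, nearly all COL1A1, with DCN at 0. The 4 endothelial markers summed to 223 to 244 CPM in Control and 135 to 183 CPM in RSM3, nearly all KDR and PECAM1, with CDH5 and VWF near 0. Their part in the results was not tested. RSM3 replicate 1 stood apart in its relation to base composition. Its log2 deviation from the 6-library mean had a Spearman correlation of 0.424 with the GC content of transcripts across 15620 genes, against -0.324 and -0.291 in the other RSM3 libraries and -0.211 to 0.159 in Control. Genes are not independent replicates, and this is a description of the libraries. In the GC content and length correction, each library's trend over all genes was removed.

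The promoters of the coactivator genes are shown beside that of CCN2, a target of TEAD proteins whose transcript rose in RSM3, so that the occurrence of the TEAD motif GGAATG can be seen. Capitals mark that motif, searched on both strands. Each stretch is the 250 bases before a RefSeq start site on GRCh38.p14, read 5′ to 3′ on the strand of the gene.
YAP1 promoter, chr11:102110197-102110446, plus strand: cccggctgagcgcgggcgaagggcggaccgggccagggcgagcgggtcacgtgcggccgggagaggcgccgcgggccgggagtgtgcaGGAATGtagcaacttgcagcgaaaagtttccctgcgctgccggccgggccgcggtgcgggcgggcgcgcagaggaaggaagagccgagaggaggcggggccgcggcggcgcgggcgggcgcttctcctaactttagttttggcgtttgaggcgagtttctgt
WWTR1 promoter, chr3:149658026-149658275, minus strand: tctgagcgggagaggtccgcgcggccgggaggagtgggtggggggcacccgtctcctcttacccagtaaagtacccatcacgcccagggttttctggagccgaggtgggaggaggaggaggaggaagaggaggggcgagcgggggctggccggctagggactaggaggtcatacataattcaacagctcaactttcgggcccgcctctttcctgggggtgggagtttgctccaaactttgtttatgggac
CCN2 promoter, chr6:131951373-131951622, minus strand: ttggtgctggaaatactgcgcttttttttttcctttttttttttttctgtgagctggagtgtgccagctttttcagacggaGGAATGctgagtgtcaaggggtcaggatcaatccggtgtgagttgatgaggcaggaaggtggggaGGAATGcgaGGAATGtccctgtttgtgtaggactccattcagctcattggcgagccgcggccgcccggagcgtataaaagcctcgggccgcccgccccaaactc
The YAP1 window held the motif once, with its first base at -162 from the start site, and the CCN2 window held it 3 times, at -169, -104 and -95. The WWTR1 window, at a RefSeq start inside the annotated gene, held none, nor did the window of its other RefSeq start. In windows extended to 300 bases, with 50 bases after the start, YAP1 was the only one of 7 matched members with a match. WWTR1, TEAD2, TEAD3, LATS1, STK4 and SAV1 had none. Of all 35116 such windows 14.0% held a match. That share is per window and not per gene, and WWTR1, TEAD2 and LATS1 each had a further window. No share per gene is given here. TEAD1, TEAD4 and STK3 were not matched to a window. A match describes the letters of the sequence and is not a measured binding site.

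None of the 10 genes changed past the threshold between RSM3 and Control. The count was 0 of 10 with edgeR's quasi-likelihood test (threshold 0.05 for the p adjusted over all genes tested), and also 0 with DESeq2 and with limma voom, while 4.2% of the 15773 genes were called, 3.09% as higher and 1.1% as lower in RSM3. That split was 488 to 174 genes, and it was 308 to 254 when libraries were scaled by their size alone. The number of genes called was 662 with all libraries, 1717 with the GC content and length correction and 2393 without RSM3 replicate 1. Without any other 1 library it was 214 to 403. At an unadjusted p under 0.05 the count was 1 of 10, TEAD4, against 17.8% of all genes. RSM3 and Control values did not overlap for 1 of 10, WWTR1, against 23.9% of all genes. The median log2 fold change of the 10 genes was 0.04, with 6 estimates above 0 and 4 below, and that of all genes tested was -0.0048. The median of the 10 turned to -0.038 without RSM3 replicate 1, -0.0023 without RSM3 replicate 3, -0.019 with library size alone and -0.039 with a term for Control replicates 1 and 2. The median size of the change, whatever its direction, was 0.121 for the 10 genes, 0.152 for all genes and 0.117 for the 9975 genes with a mean CPM at or above that of the lowest member. For 9 of the 10 the 95% interval lay wholly within a 1.5-fold change in either direction, TEAD4 being the exception, and for all 10 it lay within 2-fold. Those shares were 61.7% and 81.2% over all genes tested, which include genes of lower CPM than any member. They were not computed for genes as abundant as the members. These are levels of bulk RNA, in which fewer cells of a kind and less RNA per cell cannot be told apart.

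**Figure D1:**
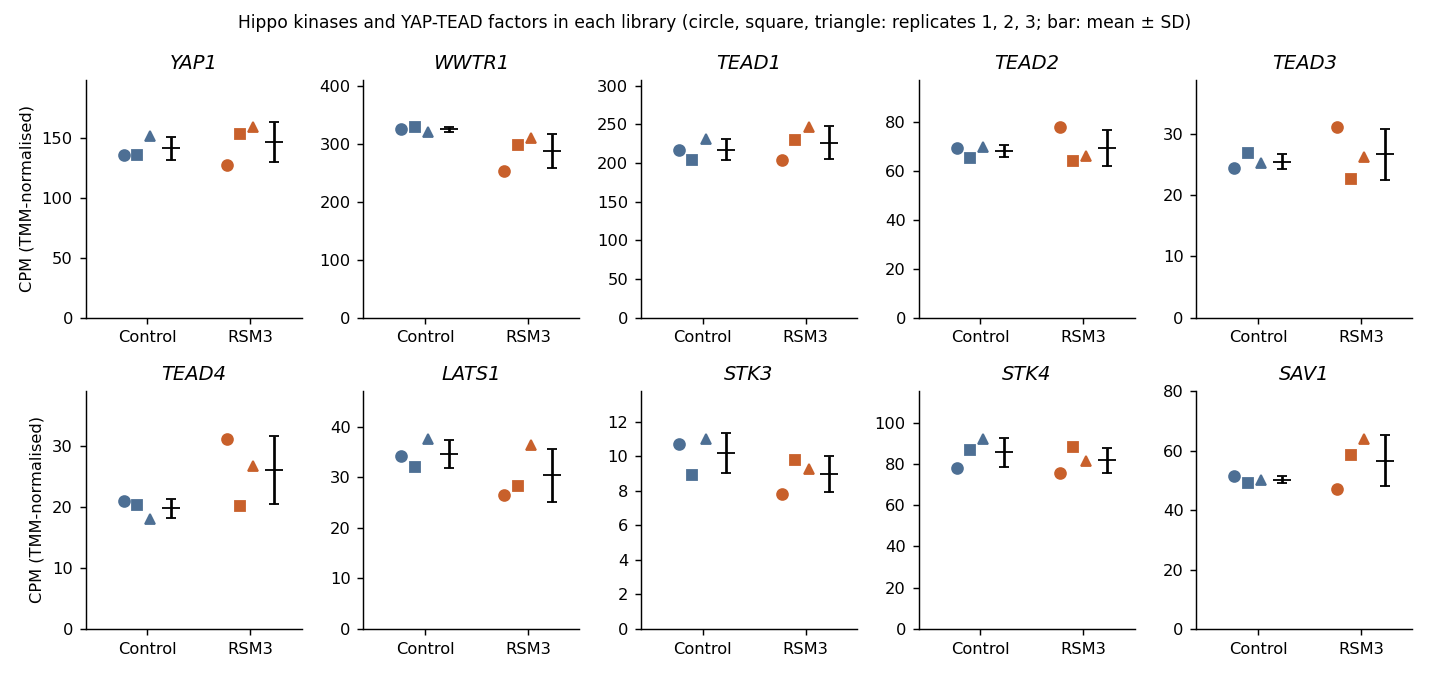
Each panel plots 1 of the 10 genes, with TMM-normalised CPM on the vertical axis, Control libraries in blue and RSM3 libraries in orange, the marker shape giving the replicate and the bar the mean ± SD (n = 3 per group). Groups overlap in every panel but that of WWTR1, and the circle of RSM3 replicate 1 is low in most panels but high in those of TEAD2, TEAD3 and TEAD4.

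YAP1, the coactivator gene on chromosome 11 (102110461 to 102233423, GRCh38, plus strand), stood at 136, 136 and 152 CPM in Control replicates 1, 2 and 3 and at 127, 154 and 159 CPM in RSM3 replicates 1, 2 and 3. RSM3 held both the lowest and the highest value, so the groups overlapped. The mean was 141 ± 9.24 CPM in Control and 147 ± 16.8 CPM in RSM3 (SD, n = 3 per group), a log2 fold change of 0.05 ± 0.09 (SE; adjusted p = 0.827 with edgeR), with a 95% interval from 0.902-fold to 1.20-fold. Without RSM3 replicate 1 the log2 fold change was 0.15 (adjusted p = 0.108 with edgeR), and without RSM3 replicate 3 it was -0.0042.

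WWTR1, which encodes TAZ (chromosome 3, 149517235 to 149736714, minus strand), was the most abundant of the 10 genes per length, at 334 TPM (counts per length, scaled to the same total in every library) in Control. In CPM it stood at 326, 329 and 321 CPM in Control and at 254, 298 and 310 CPM in RSM3 replicates 1, 2 and 3. All 3 RSM3 values were below all 3 Control values, and that of RSM3 replicate 1 was the farthest. The log2 fold change was -0.18 ± 0.08 (SE; adjusted p = 0.291 with edgeR), with a 95% interval from 0.780-fold to 1.00-fold, so it did not pass. It was -0.10 without RSM3 replicate 1 (adjusted p = 0.244) and -0.17 with the GC content and length correction (adjusted p = 0.0971). The antisense gene WWTR1-AS1 held 5 to 24 counts in a library, against 3375 to 6086 for WWTR1.

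The ratio of the coactivator genes to each other separated the groups, as WWTR1 alone and 23.9% of all genes tested also did. The share of other gene ratios that do so was not counted. YAP1 divided by WWTR1, each in TPM, was 0.228, 0.227 and 0.259 in Control and 0.275, 0.282 and 0.281 in RSM3. Every RSM3 library had a higher ratio than every Control library, and Control replicate 3 lay nearest to RSM3. The mean ratio was 0.238 ± 0.0184 in Control and 0.279 ± 0.00396 in RSM3 (SD, n = 3 per group), a difference of 0.23 on the log2 scale that ran from 0.20 to 0.30 when any 1 library was left out. The level of the ratio depends on the gene length, and with all exons of a gene counted together it was 0.581 in Control and 0.681 in RSM3. The GC contents of the genes were alike, 46.0% for YAP1 and 46.9% for WWTR1, while their median transcript lengths were 3838.5 and 2103 bases. No ratio corrected for GC content and length was computed. This ratio, 1 of 6 quantities set side by side for paralogues, was not tested.

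**Figure D2:**
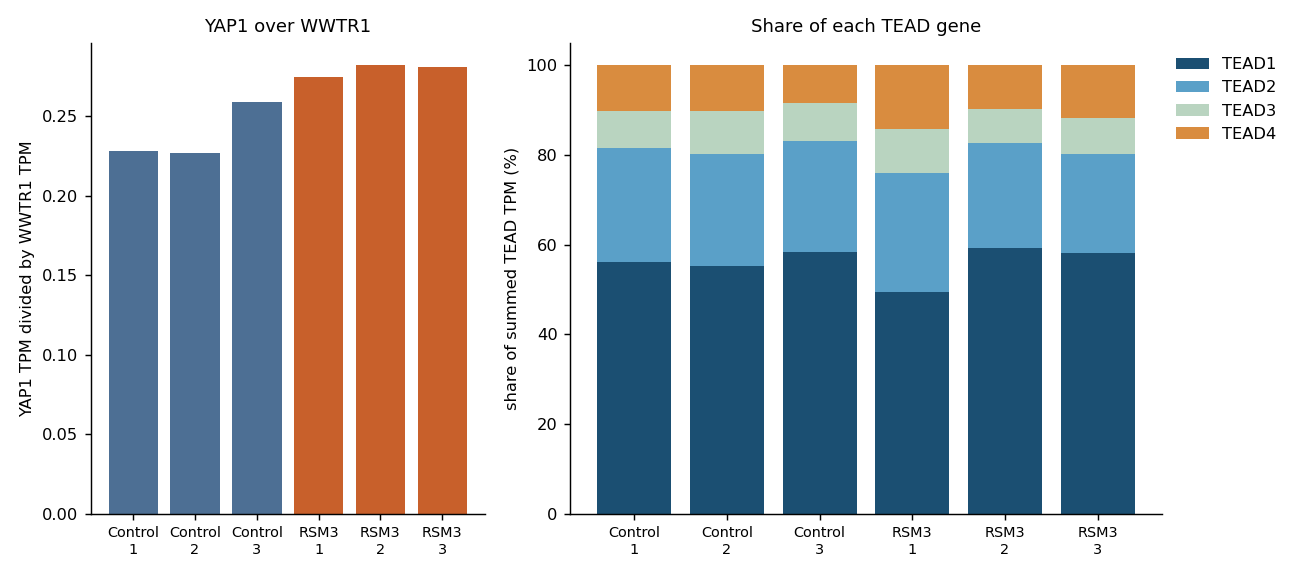
The left panel plots the TPM of YAP1 divided by that of WWTR1 in each library, Control in blue and RSM3 in orange, and the right panel the share in percent of each TEAD gene in their summed TPM. The ratio is 0.227 to 0.259 in Control and 0.275 to 0.282 in RSM3, and TEAD1, at the median transcript length, is the largest share in every library.

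Of the TEAD genes, which encode the DNA-binding partners of YAP and TAZ, TEAD1, TEAD2 and TEAD3 had estimates near 0. TEAD1 (chromosome 11, 12674591 to 12944483, plus strand) stood at 217, 204 and 231 CPM in Control and at 204, 230 and 246 CPM in RSM3. TEAD2 (chromosome 19, 49340595 to 49362457, minus strand) stood at 69.4, 65.1 and 69.8 CPM in Control and at 77.8, 63.8 and 66.1 CPM in RSM3. TEAD3 (chromosome 6, 35473597 to 35497076, minus strand) stood at 24.5, 26.8 and 25.2 CPM in Control and at 31.1, 22.7 and 26.2 CPM in RSM3. For all of these the groups overlapped, and RSM3 replicate 1 was the highest library for TEAD2 and TEAD3. Their log2 fold changes were 0.06 ± 0.09, 0.02 ± 0.09 and 0.06 ± 0.12 (SE; adjusted p = 0.781, 0.937 and 0.855 with edgeR). Without RSM3 replicate 1 they were 0.13 for TEAD1 (adjusted p = 0.130), -0.07 for TEAD2 (adjusted p = 0.618) and -0.06 for TEAD3 (adjusted p = 0.785).

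TEAD4, the remaining gene of the family, had the largest estimated change of the 10 genes. TEAD4 (chromosome 12, 2959330 to 3040673, plus strand) stood at 21.0, 20.4 and 18.0 CPM in Control and at 31.2, 20.2 and 26.7 CPM in RSM3. RSM3 replicates 1 and 3 were above all Control libraries, and RSM3 replicate 2 lay among them. Means were 19.8 ± 1.59 CPM in Control and 26.05 ± 5.58 CPM in RSM3 (SD, n = 3 per group). The log2 fold change was 0.39 ± 0.15 (SE; adjusted p = 0.175 with edgeR), with a 95% interval from 1.05-fold to 1.64-fold. With the GC content and length correction, in a fit that called 1717 genes in all, TEAD4 passed (adjusted p = 0.0243 with edgeR). The estimate there was 0.41 ± 0.11. Without RSM3 replicate 1 it was 0.25 (adjusted p = 0.193), and without RSM3 replicate 2 it was 0.55 (adjusted p = 0.0541). Over the 16 other settings it ran from 0.25 to 0.55, above 0 in each.

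Per length, the TEAD genes together stood at 271, 259 and 283 TPM in Control and at 261, 263 and 290 TPM in RSM3. TEAD1 made up 56.5 ± 1.6% of this sum in Control and 55.6 ± 5.41% in RSM3 (SD, n = 3 per group). TEAD4 made up 9.66 ± 1.03% and 11.9 ± 2.21%, from 9.73% in RSM3 replicate 2 to 14.1% in RSM3 replicate 1. No TEAD share separated the groups, and without RSM3 replicate 1 the difference in TEAD1 share turned from -0.953 to 2.15 percentage points. The shares depend on the length taken for each gene: with all exons of a gene counted together, TEAD2 held 37.4% of the Control sum and TEAD1 34.6%.

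Neither the kinase genes among the members, LATS1, STK3 and STK4, nor their scaffold SAV1 passed the threshold with all libraries. LATS1, the kinase that phosphorylates YAP and TAZ (chromosome 6, 149658153 to 149718256, minus strand), stood at 34.3, 32.1 and 37.6 CPM in Control and at 26.6, 28.3 and 36.4 CPM in RSM3. RSM3 replicates 1 and 2 were below all Control libraries and RSM3 replicate 3 was not. The log2 fold change was -0.19 ± 0.13 (SE; adjusted p = 0.492 with edgeR), and it was -0.33 without RSM3 replicate 3 (adjusted p = 0.207) and -0.10 without RSM3 replicate 1 (adjusted p = 0.610). STK4, the MST1 kinase gene (chromosome 20, 44966474 to 45079959, plus strand), stood at 78.1, 86.7 and 92.3 CPM in Control and at 75.8, 88.1 and 81.4 CPM in RSM3. Its groups overlapped, with a log2 fold change of -0.07 ± 0.09 (adjusted p = 0.770). Its antisense gene STK4-AS1 held 2 to 17 counts, against 1007 to 1751 for STK4, and reads of the 2 cannot be told apart if strand was not used in counting. STK3, the MST2 kinase gene, was the least abundant of the 10 per length and rested on 104 to 209 counts in a library. It stood at 10.7, 8.89 and 11.02 CPM in Control and at 7.83, 9.80 and 9.28 CPM in RSM3. These values also overlapped, with a log2 fold change of -0.18 ± 0.15 (adjusted p = 0.601) and a 95% interval from 0.701-fold to 1.11-fold. When 1 library was left out, the lowest STK3 estimate was -0.27 (Control replicate 2 left out) and the highest -0.096 (RSM3 replicate 1 left out). For STK4 they were -0.13 (Control replicate 1 left out) and -0.011 (Control replicate 3 left out). STK3 divided by STK4 was 0.261 ± 0.0375 in Control and 0.239 ± 0.0121 in RSM3, per length, and this ratio did not separate the groups. With all exons counted together it was 0.0862 and 0.0789.

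SAV1, the scaffold that joins the MST kinases to LATS (chromosome 14, 50632058 to 50668331, minus strand), was steady in Control at 51.4, 49.3 and 50.1 CPM and spread in RSM3 at 47.2, 58.6 and 64.1 CPM. RSM3 replicate 1 was below every Control library and the other RSM3 libraries were above them. The log2 fold change was 0.17 ± 0.11 (SE; adjusted p = 0.452 with edgeR) with all libraries. Without RSM3 replicate 1 it was 0.29 ± 0.08 and SAV1 passed (adjusted p = 0.0101), in a fit that called 2393 genes in all. Without RSM3 replicate 3 it was 0.078 (adjusted p = 0.812), and with the GC content and length correction it was 0.18 (adjusted p = 0.179).

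**Figure D3:**
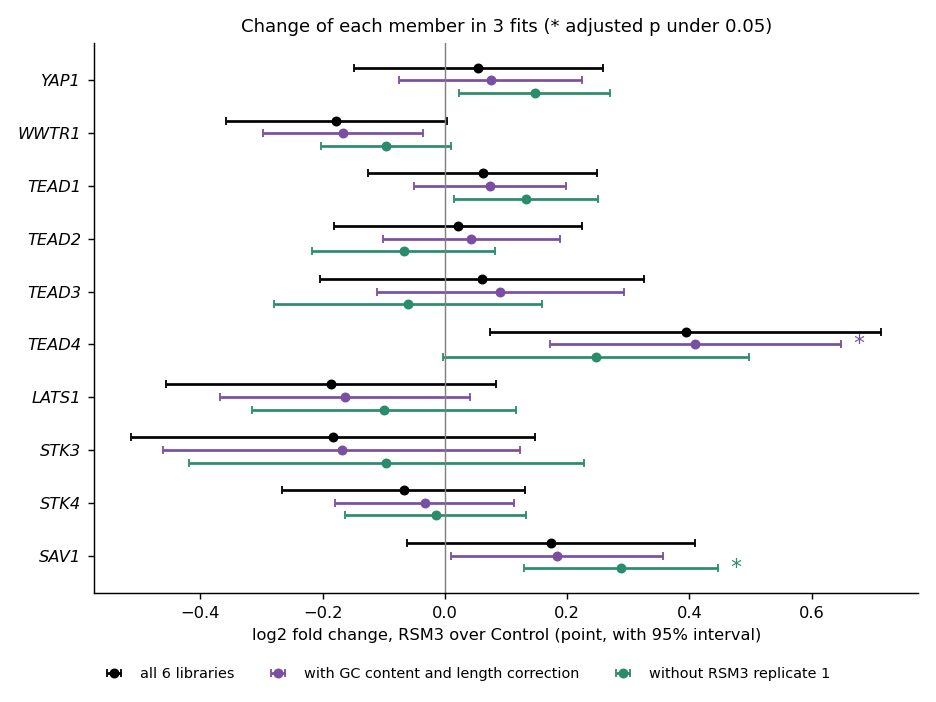
Points give the log2 fold change of each gene, RSM3 over Control, and bars its 95% interval, in the fit with all 6 libraries (black), with the GC content and length correction (purple) and without RSM3 replicate 1 (green). Stars mark an adjusted p under 0.05, which was reached by TEAD4 with the correction and by SAV1 without that library.

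In RSM3 replicate 1 the deviations of the members moved with the base composition of their transcripts. For 6 of the 7 members with a GC content under 50%, RSM3 replicate 1 was the lowest of the 6 libraries, TEAD1 being the exception, and for the 3 members above 50%, TEAD2, TEAD3 and TEAD4, it was the highest. RSM3 replicate 1 was the lowest library for 39.0% of all tested genes under 50% and the highest for 42.0% of those above. Over the 10 members, the Pearson correlation between GC content and deviation was 0.927, -0.625 and -0.0713 in RSM3 replicates 1, 2 and 3. In Control it was -0.708 to 0.0336. The Spearman correlation, the measure given for all genes, was 0.745, -0.406 and -0.152 over the members in RSM3 replicates 1, 2 and 3. In Control the Spearman values were -0.673 to 0.188. Both measures are a description over 10 genes that share a library. The deviation of TEAD4 in RSM3 replicate 1 was 0.47 on the log2 scale, and the trend of all genes at its GC content and length was 0.13. For WWTR1 the deviation was -0.26 and the trend -0.04. The part of this pattern in the differences between groups was not tested beyond the corrected fits.

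**Figure D4:**
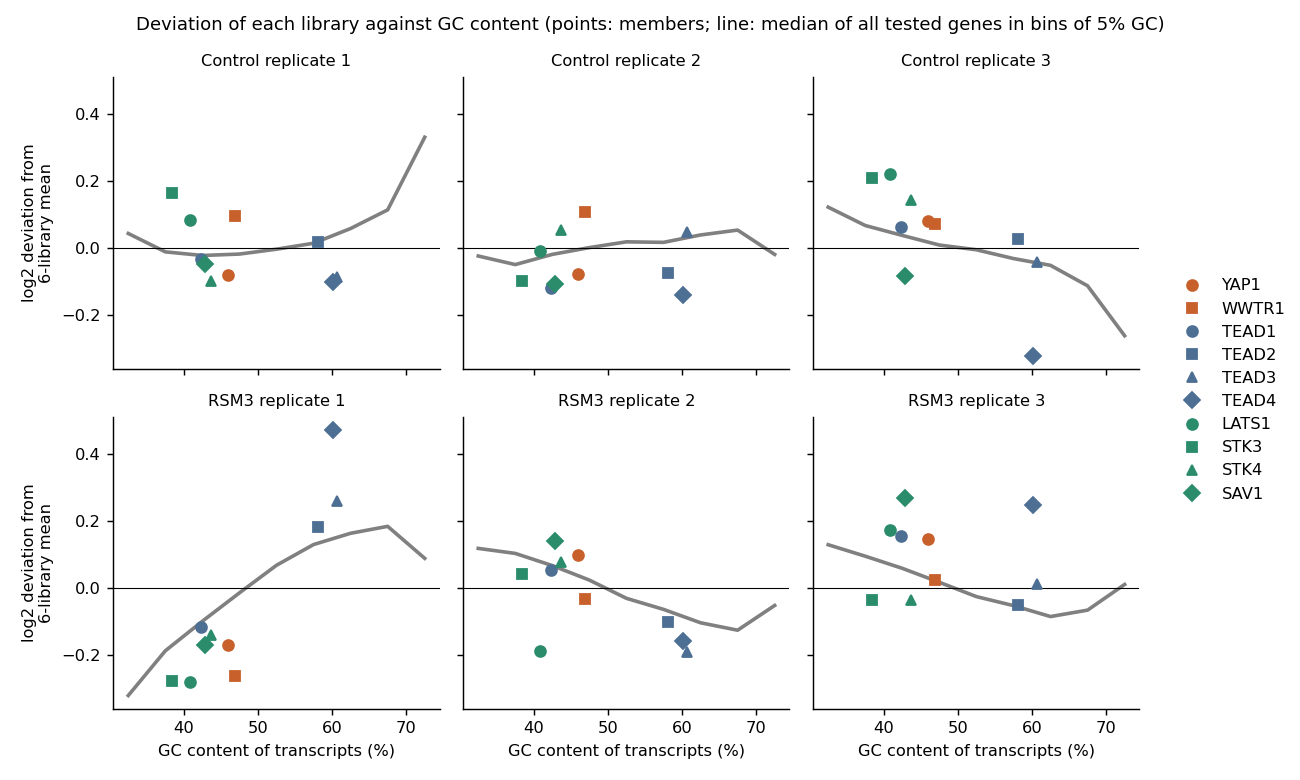
Each panel plots, for 1 library, the log2 deviation of the 10 genes from the 6-library mean against the GC content of their transcripts in percent, with a grey line for the median of all tested genes in bins of GC content. In RSM3 replicate 1 the 3 TEAD genes above 50% lie above 0 and the other members below, and the line rises over most of its range, while the lines of the other RSM3 libraries fall over most of their range.

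The order of abundance was nearly the same in both groups. In TPM, the Control means were 334 ± 1.33 for WWTR1, 153 ± 11.3 for TEAD1, 79.5 ± 6.11 for YAP1 and 68.0 ± 3.10 for TEAD2 (SD, n = 3). Lower were SAV1 at 35.4 ± 0.812, STK4 at 30.1 ± 2.78, TEAD4 at 26.1 ± 1.83, TEAD3 at 23.6 ± 1.08, LATS1 at 17.6 ± 1.61 and STK3 at 7.80 ± 0.935 TPM. Of neighbours in this order, STK4 and TEAD4 overlapped in Control, as did TEAD4 and TEAD3, and the others did not. In RSM3 the order was the same but for TEAD4, at 32.2 ± 5.91 TPM, and STK4, at 27.1 ± 3.00 TPM, whose values overlapped. WWTR1 lay above 96.9% of the genes tested and STK3 above 32.5%. With all exons counted together as the length, WWTR1 stayed first and STK3 last in Control, while TEAD1 and TEAD2 changed places, as did SAV1 and STK4.

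Outside the members, the genes whose log2 CPM over the 6 libraries was most like that of YAP1, among 11254 genes averaging 5 CPM or more, were RAB18, FZD3 and PRKAB2, with Pearson r of 0.998, 0.994 and 0.991. For TEAD4 they were ATP2A2, CSPG4 and PHRF1, with r of 0.993, 0.989 and 0.980. None of these genes was called. The points behind each r are the same 6 libraries, with their relation to base composition.

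Of the genes near YAP1 on chromosome 11, BIRC3 and BIRC2 were called. BIRC3, which encodes an inhibitor of apoptosis and begins 84.0 kb beyond the end of YAP1, stood at 10.1, 9.86 and 10.7 CPM in Control and at 40.5, 57.6 and 56.6 CPM in RSM3 (adjusted p = 3.11e-06 with edgeR). BIRC2, from the same family and 114 kb beyond YAP1, stood at 84.2, 87.6 and 79.0 CPM in Control and at 155, 193 and 186 CPM in RSM3 (adjusted p = 3.46e-05). TMEM123, the next gene, was at 244 ± 11.9 and 257 ± 17.1 CPM (SD, n = 3 per group; adjusted p = 0.689 with edgeR). BIRC3 and BIRC2 rose, by 2.34 and 1.09 on the log2 scale, and YAP1 and TMEM123 on either side did not pass. CEP126, CFAP300 and AP001527.2, the other genes tested within 500 kb, had means of 1.09 to 3.33 CPM and did not pass.

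Other genes of the pathway were read from lists of its regulators and partners, and 10 of the 85 measured genes (of 93 listed) passed, 9 higher and 1 lower in RSM3 (11.8%, against 4.2% of all genes). Their median log2 fold change was 0.02. Of the 10, AMOTL2, AJUBA, NUAK2 and LATS2 are also on the list of YAP and TAZ targets. The count was 5 without Control replicate 1, 2 or 3 or RSM3 replicate 3, 6 without RSM3 replicate 2 and 30, with 20 higher and 10 lower, without RSM3 replicate 1. It was 20 with the GC content and length correction, 17 higher and 3 lower. With a term for Control replicates 1 and 2, which leaves Control replicate 3 alone as the reference, it was 1.

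Of 16 further core kinases and adaptors LATS2 and NUAK2 rose, TNIK fell and 13 did not pass (median log2 fold change 0.0097). Without RSM3 replicate 1 the calls were 4 rises and 3 falls. LATS2, the relative of LATS1, stood at 20.7, 20.4 and 16.2 CPM in Control and at 29.1, 25.5 and 25.3 CPM in RSM3. All RSM3 libraries were above all Control libraries, with a log2 fold change of 0.48 ± 0.12 (SE; adjusted p = 0.047 with edgeR), which is close to the threshold. LATS2 did not pass without any 1 of the libraries except RSM3 replicate 1 (adjusted p = 0.0977 to 0.181). It also missed with library size alone (adjusted p = 0.0788) and with the term for Control replicates 1 and 2 (adjusted p = 0.0866). NUAK2, an AMPK-related kinase, averaged 2.24 ± 0.434 CPM in Control against 4.43 ± 0.283 CPM in RSM3 (SD, n = 3 per group; adjusted p = 0.033 with edgeR), and missed when any of those same 5 libraries was left out (adjusted p = 0.0713 to 0.132). TNIK, a kinase of the MAP4K family, stood at 23.5, 25.1 and 26.05 CPM in Control and at 14.8, 13.7 and 15.5 CPM in RSM3. It had a log2 fold change of -0.76 ± 0.11 (adjusted p = 0.00193 with edgeR) and passed in all 16 other settings. MOB1A, which activates the LATS kinases, was at 120 CPM in both groups (adjusted p = 0.994).

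Of 26 upstream scaffolds and junction proteins FRMD6, FAT4, AMOTL2 and WWC1 rose and none fell (median 0.07). There were 7 rises and 1 fall with the GC content and length correction, and 8 rises and 1 fall without RSM3 replicate 1. FRMD6, a FERM-domain protein that acts upstream of the kinases, stood at 257, 258 and 247 CPM in Control and at 344, 413 and 403 CPM in RSM3, a log2 fold change of 0.61 ± 0.08 (SE; adjusted p = 0.00136 with edgeR). FAT4, a large protocadherin, averaged 11.7 ± 0.868 CPM in Control against 21.3 ± 1.48 CPM in RSM3 (SD, n = 3 per group; adjusted p = 0.00148 with edgeR). Both passed whichever library was left out, and both missed with the term for Control replicates 1 and 2 (adjusted p = 0.0519 and 0.0903). AMOTL2, an angiomotin that binds YAP, stood at 44.4, 48.2 and 46.5 CPM in Control and at 86.9, 63.1 and 66.5 CPM in RSM3 (adjusted p = 0.00771 with edgeR), and missed without Control replicate 1 (adjusted p = 0.0624). WWC1, the scaffold KIBRA, stood at 32.6 ± 1.19 and 42.8 ± 1.99 CPM (SD, n = 3 per group; adjusted p = 0.0309 with edgeR), and missed without any 1 of the libraries except RSM3 replicate 1 (adjusted p = 0.0623 to 0.150), with library size alone (adjusted p = 0.0684) and with the term for Control replicates 1 and 2 (adjusted p = 0.239). NF2, which encodes the scaffold merlin, stood at 90.4 and 87.9 CPM and did not pass (adjusted p = 0.917).

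Of 17 inhibitors of the kinases AJUBA, a LIM protein that restrains LATS, rose from 71.9 ± 4.53 to 94.6 ± 2.72 CPM (SD, n = 3 per group; adjusted p = 0.0167 with edgeR), and 16 did not pass (median 0.0078). There were 3 rises and 1 fall with the GC content and length correction, and 3 of each without RSM3 replicate 1. AJUBA missed without any 1 of the libraries except RSM3 replicate 1 (adjusted p = 0.0554 to 0.107). None of 19 genes for retention, degradation or dephosphorylation of YAP and TAZ passed with edgeR (median 0.02), and 2 had an unadjusted p under 0.05. DESeq2 and limma voom also called none, while 3 rose with the GC content and length correction, 1 rose with the correction and replicate block, and 3 rose and 2 fell without RSM3 replicate 1. Those with the highest CPM, the 14-3-3 genes YWHAZ and YWHAQ, stood at 1583 and 1573 CPM and at 509 and 580 CPM (adjusted p = 0.969 and 0.167).

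Of 7 measured nuclear partners of TEAD VGLL4 and RUNX1 rose and none fell (median 0.20). Without RSM3 replicate 1 the calls were 2 rises and 1 fall and the median was -0.0098. VGLL4, which competes with YAP for TEAD proteins, stood at 62.0, 60.0 and 60.9 CPM in Control and at 88.7, 88.7 and 85.7 CPM in RSM3. The groups were far apart for their spread, with a log2 fold change of 0.52 ± 0.08 (SE; adjusted p = 0.00208 with edgeR) that passed whichever library was left out and missed with the term for Control replicates 1 and 2 (adjusted p = 0.0864). RUNX1, a transcription factor that can bind YAP, rose from 108 ± 6.52 to 144 ± 5.73 CPM (SD, n = 3 per group; adjusted p = 0.0121 with edgeR), and missed on leaving out Control replicate 2 or 3 or RSM3 replicate 3 (adjusted p = 0.0657 to 0.103).

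Of 21 measured YAP and TAZ targets 13 rose (61.9%, against 3.09% of all genes) and none fell, with a median log2 fold change of 0.36. Of the 13, AMOTL2, AJUBA, NUAK2 and LATS2 are also on the lists of regulators. None of the 10 members had passed, where 4.2% of all genes were called. CCN2, whose promoter is printed with that of YAP1, stood at 40.1, 35.5 and 29.2 CPM in Control and at 96.6, 91.4 and 98.6 CPM in RSM3. The 3 RSM3 values were close to each other and all above Control, with a log2 fold change of 1.45 ± 0.11 (SE; adjusted p = 1.28e-05 with edgeR). CCN1, which like CCN2 encodes a secreted matricellular protein, rose by 1.18, ANKRD1 by 2.01, TGFB2 by 0.80, GADD45B by 0.73 and AMOTL2 by 0.64 on the log2 scale (adjusted p = 2.03e-05, 0.000303, 0.00187, 0.00948 and 0.00771 with edgeR). CCN1, CCN2 and ANKRD1 passed in all 16 other settings. TGFB2 and GADD45B missed with the term for Control replicates 1 and 2 (adjusted p = 0.0858 and 0.0962), and GADD45B also without Control replicate 1 or 3 (adjusted p = 0.0523 to 0.0713). The smallest rises called were those of NT5E, DOCK5, AXL and CRIM1, by 0.36, 0.33, 0.33 and 0.32 on the log2 scale (adjusted p = 0.0172, 0.0418, 0.0297 and 0.0233 with edgeR). Each of these 4 missed when any library apart from RSM3 replicate 1 was left out (adjusted p = 0.0531 to 0.240), with library size alone (adjusted p = 0.0571 to 0.110) and with the term (adjusted p = 0.245 to 0.476). The number of targets called was 4, 6 and 5 without Control replicates 1, 2 and 3 and 6 without RSM3 replicate 2 or 3, and 14 without RSM3 replicate 1. It was 8 with library size alone and 4 with the term for Control replicates 1 and 2. Whether targets and components differ was not tested.

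**Figure D5:**
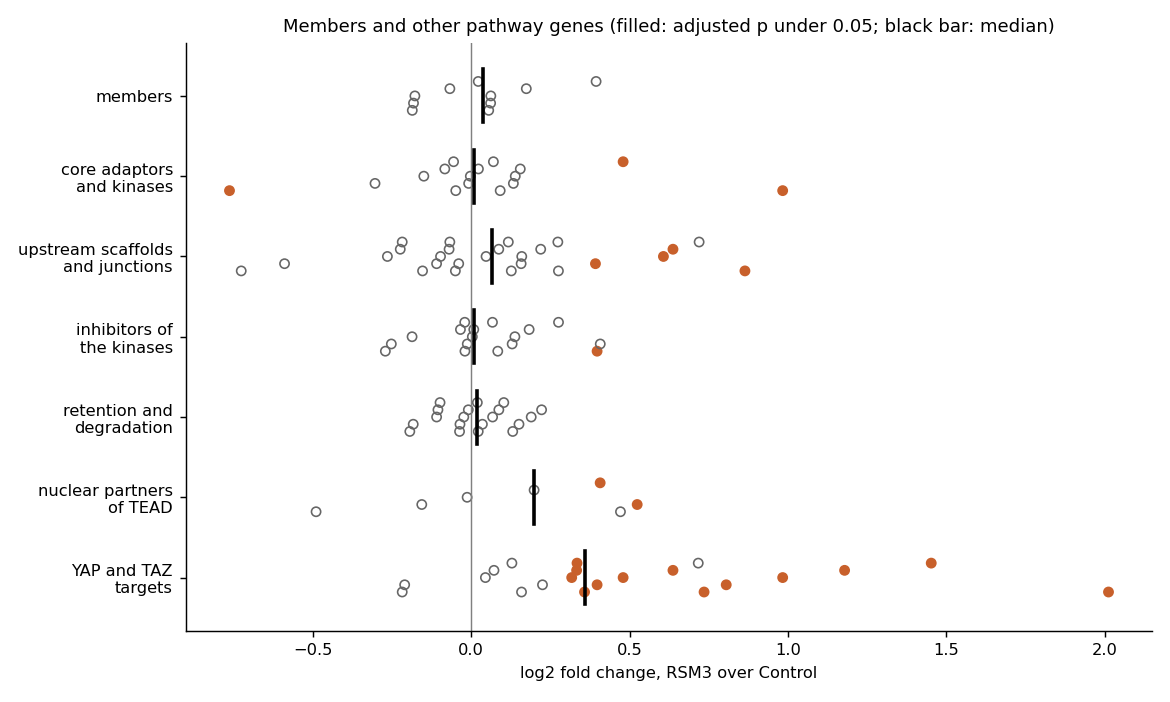
Points give the log2 fold change, RSM3 over Control, of the 10 members and of the genes on 6 lists of other pathway genes, filled where the adjusted p was under 0.05, with a black bar at the median of each list. No member is filled, 13 of 21 targets are, and TNIK at -0.76 is the filled point below 0.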

How the data were processed

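Per the labels' protocols, poly(A) RNA of 6 PC3 samples was made into dUTP-marked libraries and sequenced as paired reads. Tools named in the submitters' processing notes are DESeq2, featureCounts, STAR (2.7.1a) and fastp, with the build hg38. How strand and multiply mapped reads were handled, and which annotation was used, is not given in the sources used here, so overlapping and antisense genes are uncertain. The authors deposited whole-number counts per gene with no normalisation, and each column matched 1 sample title. Within a group, every pair of libraries differed beyond sampling noise (chi-square per degree of freedom of 3.20 to 18.0), so none was counted as a duplicate.

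Genes were kept by filterByExpr (minimum count 10), which left 15773, and tested with edgeR (4.0.16, R 4.3.3), TMM factors, robust quasi-likelihood fits and no covariate. P-values were adjusted over all genes by the Benjamini-Hochberg method. The biological coefficient of variation (common dispersion) was 10.3%. Standard errors and 95% intervals come from the F statistic. CPM are TMM-normalised, except for the keratin, KLK3 and other marker values, which use library totals. TPM were computed from counts and the median length of basic GENCODE 29 transcripts (GRCh38), which also gave GC content for 99.0% of tested genes and the coordinates. Promoters are RefSeq windows, GRCh38.p14. The GC content and length correction entered loess trends (span 0.5) as offsets. DESeq2 (1.42.0) and limma (3.58.1) were alternatives, and the procedure was checked on simulated counts.

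The members, lists and alternatives were chosen with earlier results of these data known. All 10 members were named, then of each list the called genes, up to the 6 with the smallest adjusted p (2 by CPM where none passed), and for YAP1 and the member with the smallest p the 3 genes of most similar CPM. Other genes, such as BIRC2, BIRC3, TMEM123, MOB1A, NF2 and the 4 called targets with the largest adjusted p outside the regulator lists, were named after their values were seen.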

Additional observations from a re-analysis of the deposited data

How the results depend on the processing

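In 13 of 16 other settings none of the 10 members was called. The count was 1 with the GC content and length correction, 1 with that correction and the replicate block together, and 0 to 1 when 1 library was left out. Of 160 estimates for single members, 148 kept their direction and their side of the threshold, 3 passed it and 9 changed direction, with a lowest adjusted p of 0.618. TEAD2 was at -0.038 with library size alone, and a term for Control replicates 1 and 2 gave -0.013 for TEAD2, -0.050 for YAP1 and -0.029 for TEAD1. Leaving out 1 library gave -0.0042 to 0.15 for YAP1, -0.00043 to 0.13 for TEAD1, -0.068 to 0.080 for TEAD2 and -0.061 to 0.17 for TEAD3. Over all genes, 662 were called, 1083 with no filter, 1717 with the correction, 1526 with the correction and replicate block, 118 with the Control term, and 214 to 2393 with 1 library left out. Library size alone called 308 rises and 254 falls, against 488 and 174. Of the regulators and partners, 10 were called, 20 with the correction, 16 with the correction and replicate block, 1 with the term and 5 to 30 with 1 library left out. Of the targets, 13 were called, 8 with library size alone, 4 with the term and 4 to 14 with 1 library left out. The cause was not tested. Same-numbered libraries deviated together little (Pearson correlation -0.025 to 0.044, with 2 of 6 libraries most like their own number). With 3 pairs this cannot exclude that same-numbered libraries were handled together. The replicate block alone called 653 genes and 0 members. The difference in the ratio of YAP1 to WWTR1 kept its direction whichever 1 library was left out. A gene's length is the same in every library, so the length settings could not move this difference. The setting of all exons together was added after the data were seen. With 1 library left out, the difference in STK3 over STK4 ran from -0.22 to -0.016 (log2). Likewise, differences in TEAD1, TEAD3 and TEAD4 shares ran from -2.80 to 2.15, -0.836 to 0.256 and 1.11 to 3.31 percentage points. SAV1 ran from 0.078 to 0.29. Depth limits STK3 most, with 104 to 209 counts.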
